A study of Mus musculus with 4 samples.

Results

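The phase II conjugating enzymes described here were all protein-coding mouse genes whose symbol starts with Gsta, Gstm, Gstp, Gstt, Gstz, Gsto or Gstk (glutathione transferases), with Ugt1, Ugt2 or Ugt3 (UDP-glucuronosyltransferases), or with Sult and a digit (sulfotransferases). The rule used names only and no measured value. It found 64 of the 48709 gene identifiers in the count tables, namely 22 glutathione, 21 glucuronide and 21 sulfate conjugating genes. RNA sequencing was done on livers of untreated C57BL/6 mice, with 2 WT libraries and 2 DDI2-KO libraries. WT mice were DDI2 flox/flox littermates without Cre (Alb Cre-), and DDI2-KO mice were DDI2 flox/flox Alb Cre+, so all 4 animals carried the floxed allele. Cre was driven by the albumin promoter, which is active in hepatocytes, so the other cells of the liver keep the gene. The study used males and females of 6 to 12 weeks, and the labels give neither the sex nor the age behind a library.

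Phase II enzymes attach a water-soluble group to drugs, hormones, bile acids and bilirubin so that they can be excreted in bile or urine. Glutathione transferases join glutathione to electrophiles, UDP-glucuronosyltransferases transfer glucuronic acid from UDP-glucuronate, and cytosolic sulfotransferases transfer sulfate from the donor PAPS. The hepatocyte is their main site in the body, and many of the genes are controlled by xenobiotic receptors, by sex-dependent growth hormone secretion or by the transcription factor NRF2, a relative of the DDI2 substrate NRF1.

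Between 22501208 and 34109018 reads were assigned to genes per library, and 3 reads corresponded to a CPM of 0.0892 to 0.131 (reads relative to a library's total, scaled by TMM factors), taken as the smallest level that could be seen. Ddi2 itself was at 141 and 123.4 CPM in WT and at 157 and 164 CPM in the libraries labelled DDI2-KO (log2 fold change 0.28, adjusted p = 0.349). All adjusted p-values, unless another tool is named, come from the quasi-likelihood test of edgeR with adjustment after Benjamini and Hochberg over all genes tested. No decrease of Ddi2 was thus seen in either DDI2-KO library. The count tables give 1 value for the whole gene and none for the floxed part alone, so the genotype of a library cannot be read from them and is taken from the labels. The study reports PCR genotyping of its mice, and immunoblots of DDI2 protein in WT and DDI2-KO livers after PBS or cadmium. Hepatocyte markers were abundant in all libraries (summed level of the 7 found, 153281 to 185139.5 CPM) and the kidney genes Umod, Slc12a1 and Slc34a1 were at 0. Relative to the reads on genes, those left as ambiguous between genes amounted to 2.5% and 2.54% in WT and to 3.49% and 3.66% in DDI2-KO. Reads without a unique alignment amounted to 65.8% and 51.8% in WT and to 49.2% and 47.3% in DDI2-KO, again relative to the reads on genes, and the part of either share in the values of near copies and overlapping genes was not tested. The WT libraries stood apart from each other in several genes with sex-biased expression, described with the sulfotransferases.

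Of the 64 genes, 50 passed the filter on low counts and were tested. Only Sult2a2 and Sult2a3 were called (adjusted p under 0.05), both higher in DDI2-KO, which is 4.0% of those tested. Sult2a3 passed the filter only through its reads in DDI2-KO. Over all 13699 genes tested, 2.53% were called (1.33% higher and 1.2% lower). A looser reading, with an unadjusted p under 0.05 and WT and DDI2-KO libraries that did not overlap, held for 13 genes higher and 4 genes lower in DDI2-KO (34.0% of 50), where 23.5% of all genes met it (12.0% higher and 11.5% lower). At least 23.5% of all genes thus had an unadjusted p under 0.05, the share to set beside such counts in the classes and lists below. DESeq2 called 940 of all 13699 genes. The log2 fold change was above 0 in 36 of the 50 genes, with a median of 0.18, against 48.7% of all genes and a median of -0.01. Without regard to a test, both DDI2-KO libraries lay above both WT libraries in 22 of the 50 genes and below them in 5, and over all genes this held for 28.0% and 27.7%. Upper-quartile scaling changed the split of all called genes from 182 higher and 164 lower to 126 higher and 191 lower, and left the same 2 sulfotransferases called.

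**Figure D1:**
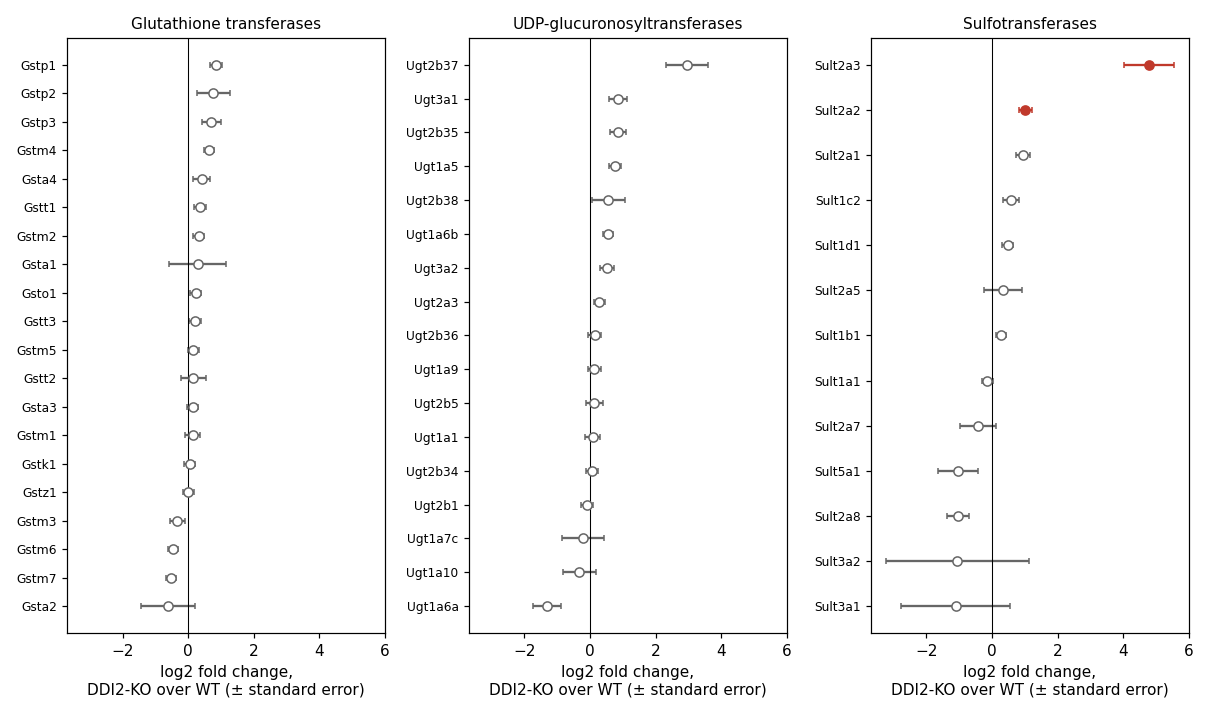
Log2 fold change of DDI2-KO over WT (x axis) with its standard error for each tested gene (y axis), in one panel per class, with 2 libraries per group. Filled red points have an adjusted p under 0.05 (Sult2a2 and Sult2a3), and open points do not.

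The sequences of the Sult2a genes bear on how far their reads can be told apart. The 8 Sult2a genes lie together on chromosome 7 between 13623967 and 14494230 (GRCm38) and encode sulfotransferases for hydroxysteroids and bile acids. The longest annotated transcripts of Sult2a1 and Sult2a2 were identical at 98.5% of 525 aligned bases, those of Sult2a2 and Sult2a3 at 93.1% of 523 bases, and those of Sult2a2 and Sult2a8 at 75.3% of 369 bases. A stretch of 90 bases in the coding part of the GENCODE transcripts is given 5′ to 3′, with capitals where a gene differs from Sult2a2.
Sult2a2: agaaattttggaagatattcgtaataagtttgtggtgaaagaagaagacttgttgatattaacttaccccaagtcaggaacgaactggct
Sult2a1: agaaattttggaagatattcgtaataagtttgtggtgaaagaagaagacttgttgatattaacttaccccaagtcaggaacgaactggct
Sult2a3: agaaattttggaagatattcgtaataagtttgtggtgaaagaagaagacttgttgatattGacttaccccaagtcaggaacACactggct
Sult2a5: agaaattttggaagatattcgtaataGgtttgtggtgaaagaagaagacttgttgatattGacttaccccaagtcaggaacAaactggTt
Sult2a8: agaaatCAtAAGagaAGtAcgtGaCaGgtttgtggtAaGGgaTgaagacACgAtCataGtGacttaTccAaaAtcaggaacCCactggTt
Sult2a1 did not differ from Sult2a2 in these bases, Sult2a3 differed at 3, Sult2a5 at 4 and Sult2a8 at 27. The 50-base stretches of each gene's longest annotated transcript were also looked up in other genes. Of these, 62.1% for Sult2a2, 33.2% for Sult2a1, 8.36% for Sult2a3 and none for Sult2a8 occur in another gene. The division of reads between Sult2a1 and Sult2a2 is therefore uncertain, and that of Sult2a3 less so.

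Sult2a3 (ENSMUSG00000074375, minus strand, chromosome 7, 14067446 to 14123044) had 3 reads in WT replicate 1, none in WT replicate 2, and 43 and 26 in DDI2-KO, or 0.0892 and 0 CPM against 1.66 and 1.13 CPM. Both DDI2-KO libraries lay above both WT libraries, which were at or below the level of 3 reads. Sult2a3 rose in DDI2-KO, with a ratio of group means of at least 15.0 when WT is set to the level of 3 reads per library (fitted log2 fold change 4.79 ± 0.77 (SE), adjusted p = 0.0309). This bound takes no account of the spread between the DDI2-KO libraries. Sult2a3 remained a gene of low abundance, and it passed the filter on low counts only through the group in which it was higher. Without DDI2-KO replicate 1 its adjusted p was 0.0611, and without WT replicate 1 the log2 fold change was 8.22, against a gene at 0.

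Sult2a2 (ENSMUSG00000070811, plus strand, chromosome 7, 13733505 to 13779636) was at 86.7 and 114 CPM in WT and at 213 and 192 CPM in DDI2-KO. The groups did not overlap, and the WT libraries differed 1.31-fold and the DDI2-KO libraries 1.11-fold. Sult2a2 rose 2.02-fold (log2 fold change 1.01 ± 0.19 (SE), adjusted p = 0.0431). The call was close to the threshold, with an adjusted p of 0.193 without WT replicate 1, 0.0625 without DDI2-KO replicate 1, 0.0546 in limma-voom, 0.0553 in limma-trend and 0.0570 without robust estimation.

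Other Sult2a genes differed in direction. Sult2a1, the near copy of Sult2a2, was at 40.2 and 25.5 CPM in WT and at 60.6 and 65.6 CPM in DDI2-KO, without overlap, but its adjusted p was 0.0665 (log2 fold change 0.94). With 1 library left out, the Sult2a1 value ran from 0.65 without WT replicate 2 (adjusted p = 0.255) to 1.31 without WT replicate 1 (adjusted p = 0.044). Sult2a8, a bile acid sulfotransferase, had the opposite order, with 585 and 278 CPM in WT and 194 and 224 CPM in DDI2-KO. The log2 fold change of Sult2a8 was -1.05 (adjusted p = 0.133), -0.41 without WT replicate 1, the library with the high value, and -1.49 without WT replicate 2 (adjusted p = 0.0118). Summed over the family, the Sult2a level was 717 and 423 CPM in WT and 476 and 487 CPM in DDI2-KO, so that the groups overlapped.

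Sult3a1 and Sult3a2, a pair of neighbouring genes on chromosome 10 (33766424 to 33879532) that are expressed mainly in females in mouse liver, separated the WT libraries from each other. Sult3a1 was at 294 CPM in WT replicate 1 and 17.5 CPM in WT replicate 2, a 16.8-fold difference, and the DDI2-KO libraries lay between them at 79.4 and 64.9 CPM. Sult3a2, named after its values were seen, had 402 reads in WT replicate 1 and 1 read in WT replicate 2, against 86 and 56 reads in DDI2-KO. Neither passed the test, with log2 fold changes of -1.11 (adjusted p = 0.758) and -1.06 (adjusted p = 0.824). For Sult3a1 the difference from DDI2-KO was 2.04 without WT replicate 1 (adjusted p = 0.00795) and -2.03 without WT replicate 2 (adjusted p = 0.00214), and for Sult3a2 it was 6.29 (adjusted p = 0.0055) and -2.05 (adjusted p = 0.0105). The direction of both genes was thus set by which WT library was kept.

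Some other genes with female-biased expression also differed between the WT libraries. Of 17 such genes in a list, 7 were more than 2-fold higher in WT replicate 1, 2 (Hao2 and Hamp2) were more than 2-fold higher in WT replicate 2, and 8 differed by less. Among the 7, the steroid hydroxylases Cyp3a41a (271 and 9.22 CPM), Cyp3a44 (238 and 9.16 CPM) and Cyp3a16 (198 and 1.00 CPM), picked after their values were seen, were high in WT replicate 1 and low in WT replicate 2. The summed level of the list was 5518 and 3920 CPM in WT and 6068 and 5114 CPM in DDI2-KO (without these 3 genes, 4811 and 3901 CPM and 5722 and 4768 CPM), with 1 gene called lower (Cyp17a1, log2 fold change -1.50, adjusted p = 0.0338, and 0.0656 to 0.0921 without WT replicate 1 or either DDI2-KO library). Of the 14 tested genes of a male-biased list, Cyp2d9 was called higher (2.57, adjusted p = 0.0166, and 0.0707 to 0.078 without a DDI2-KO library) and Slco1a1 lower (-1.55, adjusted p = 0.0186). The Y-linked genes Ddx3y, Uty, Kdm5d and Eif2s3y were at 0 in all 4 libraries, so no library gave a sign of a male in these genes. The part of the genes with sex-biased expression in the sulfotransferase values was not tested.

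**Figure D2:**
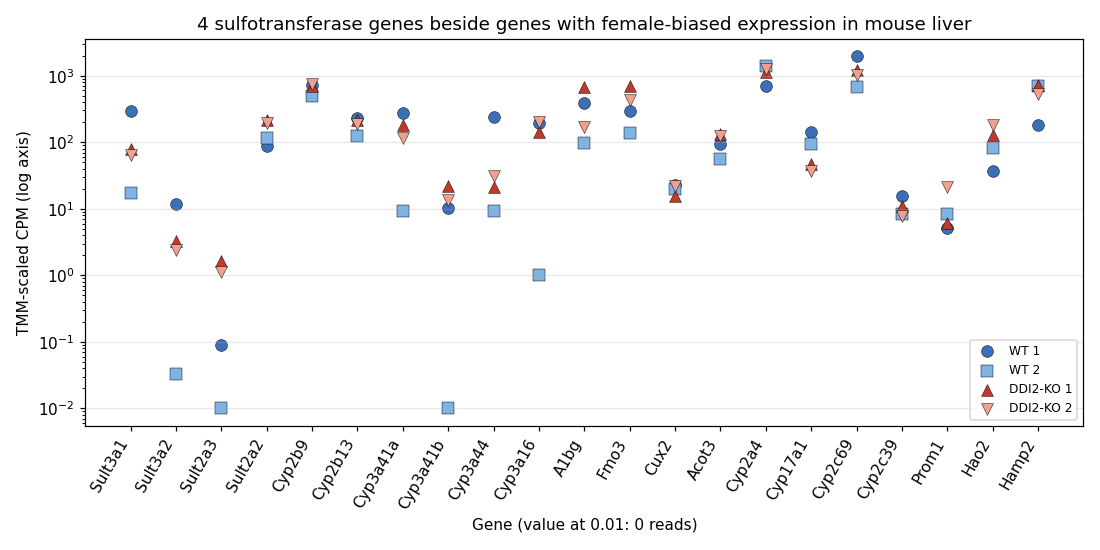
Level in each library (CPM, log axis) of 4 sulfotransferase genes and of the 17 genes of the female-biased list, with WT libraries in blue and DDI2-KO libraries in red, and libraries with 0 reads drawn at 0.01. WT replicate 2 (light squares) lies far below WT replicate 1 (dark circles) in Sult3a1, Sult3a2, Cyp3a41a, Cyp3a44 and Cyp3a16, and the WT libraries are close in Sult2a2.

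The spread between WT libraries was wider among sulfotransferases than in the other classes. With values under the level of 3 reads set to it, the WT libraries differed by more than 2-fold in 6 of the 13 tested sulfotransferase genes (Sult2a5, Sult2a7, Sult2a8, Sult3a1, Sult3a2 and Sult5a1), where 4.69% of all genes tested did. The DDI2-KO libraries differed by that much in 1 of the 13 (Sult2a5), near the 6.01% of all genes, and in the other classes in Gstt2 and Ugt1a6a. Such a difference was found in 2 of 20 glutathione transferase genes (Gsta1 and Gsta2) and in 3 of 17 glucuronosyltransferase genes (Ugt1a7c, Ugt2b37 and Ugt2b38) between WT libraries. The direction was not shared, since Gsta2, also named after its values were seen, was at 6.25 CPM in WT replicate 1 and 29.8 CPM in WT replicate 2, with 11.6 and 12.1 CPM in DDI2-KO (log2 fold change -0.61, adjusted p = 0.718). Without WT replicate 1 the value of Gsta2 was -1.33 (adjusted p = 0.0365), and without WT replicate 2 it was 0.92.

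Sult1a1, the main phenol sulfotransferase, had the highest level per kilobase of exon in its class (303 CPM per kilobase, mean of all libraries), ahead of Sult2a2 (204), Sult3a1 (98.5) and Sult2a8 (97.5). That order differed between groups, with Sult2a2 at 135 CPM per kilobase in WT and 273 in DDI2-KO, where Sult1a1 was at 318 and 288, and the places of Sult3a1 and Sult2a8 lie within the spread between libraries. Sult1a1 was at 467 and 491 CPM in WT and at 440 and 429 CPM in DDI2-KO (log2 fold change -0.14, adjusted p = 0.662). Sult1d1, which acts on catecholamines, was at 120 and 135 CPM in WT and 171 and 186 CPM in DDI2-KO (0.49, adjusted p = 0.139). The groups did not overlap in either gene, and neither passed the test. The other tested genes, Sult1b1, Sult1c2, Sult2a5, Sult2a7 and Sult5a1, had log2 fold changes between -1.03 (Sult5a1, with -1.63 and adjusted p = 0.0388 without WT replicate 2 and 0.018 without WT replicate 1) and 0.58 (Sult1c2). The 8 genes that could not be tested, Sult1c1, Sult1e1, Sult2a4, Sult2a6, Sult2b1, Sult4a1, Sult6b1 and Sult6b2, had at most 8 reads in a library, and 4 of them had none.

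Among the glutathione transferases, no gene passed edgeR's test, and none did in limma-voom or limma-trend, while DESeq2 called Gstm4 and Gstp1 higher. An unadjusted p under 0.05 in edgeR was found in 5 of 20, all without overlap of the groups (25.0%, near the 23.5% of all genes). The class was dominated by Gstm1, a mu class enzyme at 1393 CPM per kilobase, which supplied 38.3% of its reads, followed by the alpha class Gsta3 (297), the theta class Gstt1 (177) and Gstz1 (165), which also acts in tyrosine breakdown. Gstm1 was at 1575 and 2335 CPM in WT and at 1928 and 2368 CPM in DDI2-KO, and the groups overlapped (log2 fold change 0.14, adjusted p = 0.761). Gsta3 was at 1273 and 1177 CPM against 1382 and 1337 CPM (0.15, adjusted p = 0.638), and Gstz1 at 849 and 830 CPM against 841 and 839 CPM (0.00, adjusted p = 0.998). Gstt1 was at 245 and 229 CPM in WT and at 344 and 266 CPM in DDI2-KO (0.36, adjusted p = 0.289), without overlap.

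The 3 pi class genes on chromosome 19 (4035407 to 4059569) each had both DDI2-KO libraries above both WT libraries. This order held for 28.0% of all genes tested. Gstp1 was at 27.2 and 30.9 CPM in WT and at 46.0 and 58.4 CPM in DDI2-KO. With a log2 fold change of 0.85 ± 0.18 (SE) it lay just outside the threshold (adjusted p = 0.0516). Gstp3 was at 23.5 and 45.1 CPM against 56.8 and 54.8 CPM (0.70, adjusted p = 0.206), and Gstp2 at 0.297 and 0.324 CPM against 0.464 and 0.609 CPM (0.78, adjusted p = 0.390). The values of Gstp2 rest on 10 and 10 reads in WT and 12 and 14 reads in DDI2-KO. Gstp1 and Gstp2 transcripts were identical at 95.7% of 786 aligned bases. Of the 50-base stretches, 62.3% of those of Gstp1 and 72.6% of those of Gstp2 occur in another gene. The reads of this pair are thus hard to separate, and Gstp2 is not a case apart from Gstp1. With 1 library left out, the adjusted p of Gstp1 ran from 0.034 without DDI2-KO replicate 1 to 0.256 without WT replicate 1. The log2 fold change of Gstp3 ran from 0.31 without WT replicate 1 (adjusted p = 0.624) to 1.25 without WT replicate 2 (adjusted p = 0.0397).

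The mu class genes on chromosome 3 (107895821 to 108044894) differed in direction. Gstm4 was at 55.9 and 58.3 CPM in WT and at 88.0 and 88.2 CPM in DDI2-KO (log2 fold change 0.63, adjusted p = 0.0682). Gstm7 was at 93.5 and 86.9 CPM against 63.4 and 62.4 CPM (-0.52, adjusted p = 0.101), and Gstm6 at 131 and 136 CPM against 99.6 and 95.0 CPM (-0.45, adjusted p = 0.141). In each of these 3 genes the libraries of a group were close and the groups were apart, with a ratio of at most 1.54. The other tested glutathione genes were Gsta1, Gsta2, Gsta4, Gstk1, Gstm2, Gstm3, Gstm5, Gsto1, Gstt2 and Gstt3, whose log2 fold changes lay between -0.61 (Gsta2) and 0.41 (Gsta4). Gsto2 and Gstt4 were not tested, with at most 5 reads in a library.

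Because NRF2 and NRF1 bind antioxidant response elements, windows around gene starts were searched for the core letters TGACNNNGC on both strands, from 250 bases before to 50 after each RefSeq start (GRCm38.p6). The letters occurred in windows of 14.0% of all genes with a window and of 3 of the 56 phase II genes with one, namely Gsta3, Gstm5 and Gstm7. All 3 are glutathione transferases (3 of 20 with a window), and no window of 19 glucuronosyltransferase or 17 sulfotransferase genes held them. In Gstm7 the match lay in the window of an inner RefSeq start and inside the annotated gene, and the window of its outer start held none. The windows of Gsta3, with the match in capitals, and of Sult2a3, the tested gene with the largest fold change, are shown up to the start, 5′ to 3′ on the strand of the gene.
Gsta3 (chr1:21240335-21240584, plus strand): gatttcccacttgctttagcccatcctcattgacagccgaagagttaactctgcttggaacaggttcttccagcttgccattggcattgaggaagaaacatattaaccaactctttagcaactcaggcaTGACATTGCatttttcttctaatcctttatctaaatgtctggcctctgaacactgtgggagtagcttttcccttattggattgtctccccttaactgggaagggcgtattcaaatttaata
Sult2a3 (chr7:14123049-14123298, minus strand): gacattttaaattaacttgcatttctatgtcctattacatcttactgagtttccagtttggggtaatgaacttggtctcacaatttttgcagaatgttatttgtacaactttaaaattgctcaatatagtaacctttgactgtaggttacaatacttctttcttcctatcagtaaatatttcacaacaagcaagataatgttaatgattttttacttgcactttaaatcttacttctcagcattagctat
The match began 121 bases before the start of Gsta3, which differed by 0.15 on the log2 scale and did not pass the test. A match in letters is a description of the window and not a binding site. Only these exact letters were searched. Forms with another base in place of the C were not counted, such as TGAGTCAGC in the windows of Gstp1 and Gstp2, so a window without a match may still hold a related element. Gsta4, Gstt2, Sult2a1, Sult2a2, Sult2a7, Sult4a1, Ugt1a6b and Ugt3a2 had no entry.

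No UDP-glucuronosyltransferase gene passed edgeR's test, whereas DESeq2 called 5 and limma-voom and limma-trend 1 each, Ugt2b37. In edgeR 7 of 17 had an unadjusted p under 0.05, all without overlap of the groups (41.2%, against 23.5% of all genes). Ugt2b37 (ENSMUSG00000057425, chromosome 5, 87240493 to 87254804), of a family that acts on steroids and other lipophilic compounds, was at 15.4 and 4.63 CPM in WT and at 67.3 and 87.7 CPM in DDI2-KO. It was the largest difference of the class, with both DDI2-KO libraries far above both WT libraries and a ratio of means of 7.75. The WT libraries differed 3.32-fold, and the fitted log2 fold change of 2.95 ± 0.64 (SE) had an adjusted p of 0.103 in edgeR, against 0.00677 in DESeq2, 0.0389 in limma-voom, 0.0453 in limma-trend and 0.0460 without robust estimation. Its transcript was identical to that of Ugt2b5 at 93.6% of 1855 bases, and 18.3% of its 50-base stretches occur in another gene. Ugt2b35, of the same cluster, was at 139 and 132 CPM in WT and at 188 and 300 CPM in DDI2-KO (0.85, adjusted p = 0.0878). With 1 library left out, Ugt2b37 passed without WT replicate 1 (4.07, adjusted p = 0.000338) or WT replicate 2 (2.33, adjusted p = 0.00229) and did not without DDI2-KO replicate 1 (3.13, adjusted p = 0.387) or DDI2-KO replicate 2 (2.75, adjusted p = 0.413). It was called in 6 of 15 alternative settings in all. Ugt2b35 ran from 0.48 without DDI2-KO replicate 2 (adjusted p = 0.158) to 1.15 without DDI2-KO replicate 1 (adjusted p = 0.0358).

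The Ugt2b genes that supplied most of the reads overlapped between groups. On lengths that include shared exons, Ugt2b5 had the highest level per kilobase of the class (302 CPM per kilobase), next to Ugt2b36 (292), and both were well above Ugt3a2 (154). Ugt1a1 followed at 142, but 58.9% of its exonic bases are shared with other Ugt1a genes. Reads there may be left as ambiguous, so its place in this order is uncertain. Ugt2b5 was at 591 and 482 CPM in WT and at 446 and 727 CPM in DDI2-KO (0.13, adjusted p = 0.797). Ugt2b36 was at 583 and 557 CPM against 532 and 730 CPM (0.15, adjusted p = 0.705). In both genes DDI2-KO replicate 1 was the lowest and DDI2-KO replicate 2 the highest of the 4 libraries, so their order per kilobase is within the spread between libraries.

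The 9 Ugt1a genes on chromosome 1 (88055388 to 88220002) have a first exon of their own and share the following ones, so that 50.3% to 60.6% of the exonic bases of each belong to another gene too. Ugt1a1, the enzyme that conjugates bilirubin, was at 355 and 257 CPM in WT and at 272 and 376 CPM in DDI2-KO, with overlap (log2 fold change 0.08, adjusted p = 0.864). Ugt1a5 was at 111 and 103 CPM against 207 and 155 CPM (0.76, adjusted p = 0.0732), and Ugt1a6b, of a pair that acts on small phenols, at 33.8 and 34.5 CPM against 48.4 and 51.0 CPM (0.54, adjusted p = 0.0879). Its partner Ugt1a6a had the opposite order, at 14.6 and 17.6 CPM in WT and at 3.55 and 9.49 CPM in DDI2-KO (-1.31, adjusted p = 0.153). None of these 4 passed the test with all libraries, and without DDI2-KO replicate 2 Ugt1a5 (0.96, adjusted p = 0.0337) and Ugt1a6a (-2.17, adjusted p = 0.0148) did. Without another library the adjusted p was at least 0.124 for Ugt1a5 and 0.089 for Ugt1a6a, whose log2 fold changes without DDI2-KO replicate 1 were 0.54 and -0.76. Their separation depends on how reads in shared exons were assigned, and the part of the higher ambiguous share in DDI2-KO in these values was not tested.

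Both Ugt3a genes on chromosome 15 (9276888 to 9370955), a family known for using UDP sugars other than UDP-glucuronate, were higher in both DDI2-KO libraries than in both WT libraries. Ugt3a1 was at 51.2 and 28.3 CPM in WT and at 78.2 and 66.1 CPM in DDI2-KO (0.86, adjusted p = 0.125), with values from 0.50 without WT replicate 2 (adjusted p = 0.404) to 1.35 without WT replicate 1 (adjusted p = 0.0426). Ugt3a2 was at 461 and 320 CPM against 548 and 578 CPM (0.53, adjusted p = 0.187). The other tested genes, Ugt1a10, Ugt1a7c, Ugt1a9, Ugt2a3, Ugt2b1, Ugt2b34 and Ugt2b38, had log2 fold changes between -0.33 (Ugt1a10) and 0.55 (Ugt2b38). Ugt1a2, Ugt1a8, Ugt2a1 and Ugt2a2 were not tested, with at most 1 read in a library.

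**Figure D3:**
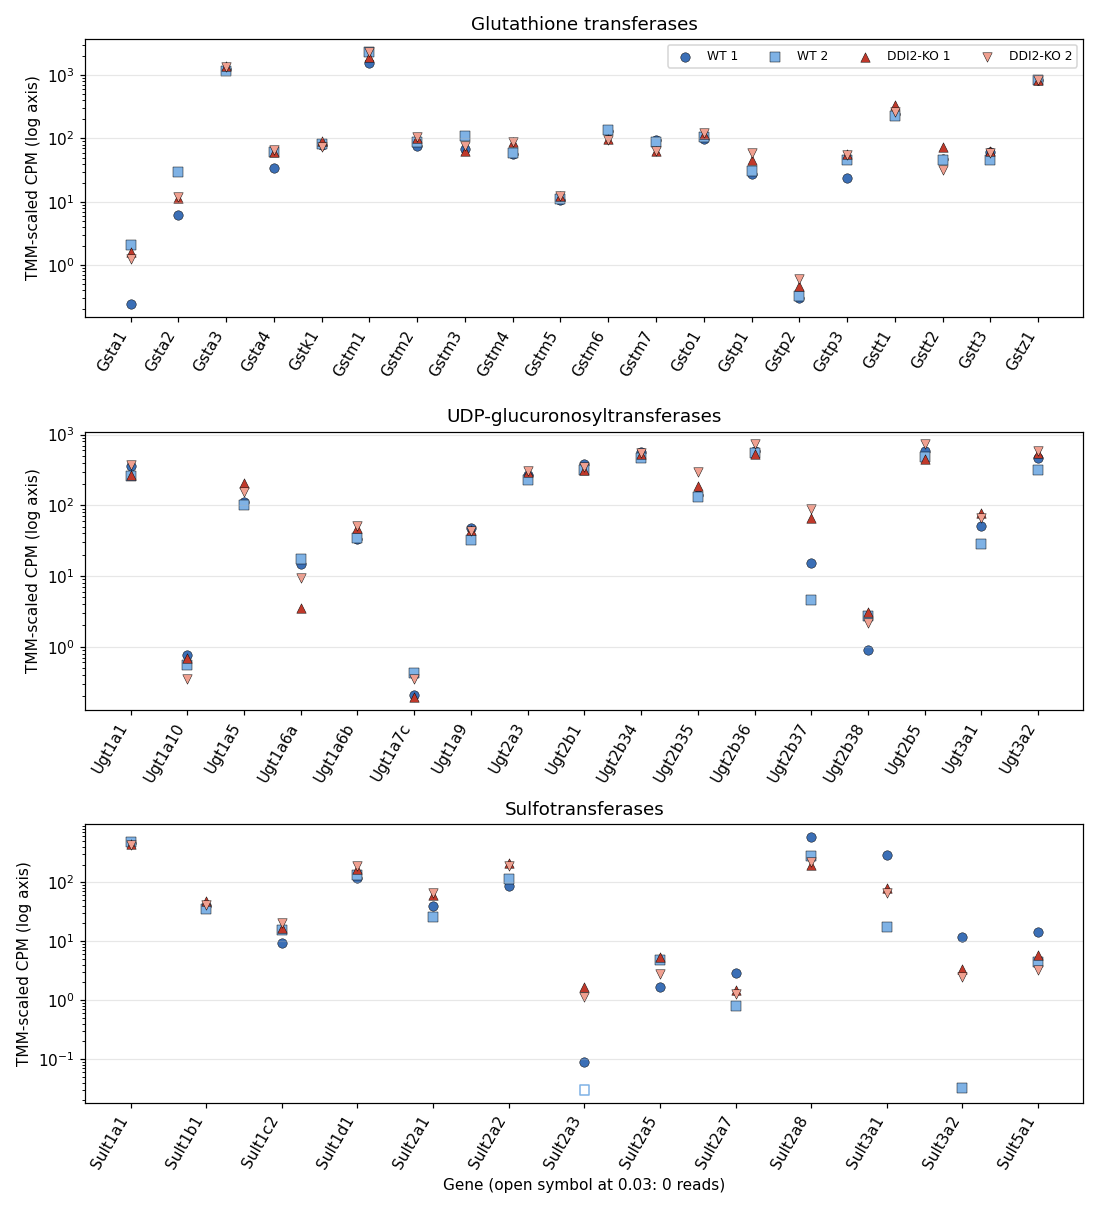
Level of each of the 50 tested genes (x axis) in each library (CPM, log axis), with WT libraries in blue and DDI2-KO libraries in red, and an open symbol at 0.03 for 0 reads. Both DDI2-KO libraries lie above both WT libraries in Sult2a2, Sult2a3, Ugt2b37 and the 3 Gstp genes (Gstp2 with only 10 to 14 reads). The WT libraries are far apart in Sult3a1 and Sult3a2.

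Summed over a class, levels differed little. The glutathione transferases together were at 4752 and 5508 CPM in WT and at 5446 and 5726 CPM in DDI2-KO, the glucuronosyltransferases at 3634 and 2981 CPM against 3582 and 4328 CPM, and the sulfotransferases at 1672 and 1122 CPM against 1240 and 1235 CPM. In all 3 classes the groups overlapped, with log2 ratios of the group means of 0.12, 0.26 and -0.18. The sulfotransferase ratio was 0.14 without WT replicate 1. An exact permutation test on 2 against 2 libraries cannot give a two-sided p below 0.333, so no test of the sums is given. In a bulk sample, a lower value can come from fewer cells of a type or from less RNA per cell, which cannot be told apart.

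**Figure D4:**
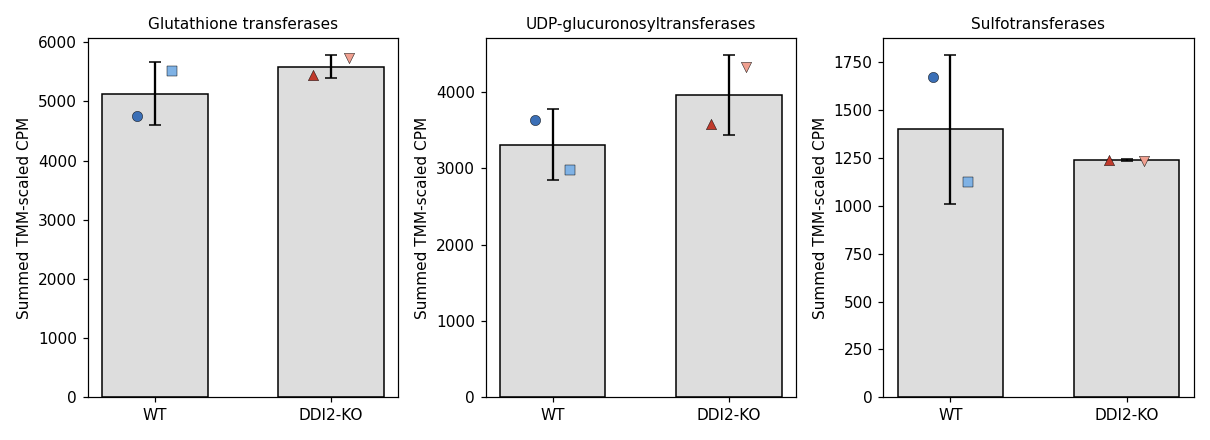
Summed level of each class (CPM), with bars for the mean of 2 libraries, error bars for the SD and symbols for the single libraries (WT in blue, DDI2-KO in red). The groups overlap in all 3 classes, and the WT sulfotransferase sums of 1672 and 1122 CPM lie on either side of both DDI2-KO sums.

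Genes that supply the donors of the 3 reactions, or that handle the donors or their precursors in other ways, were compared in lists. Of 15 tested genes of glutathione supply and 10 of UDP-glucuronate supply, none was called by edgeR, DESeq2, limma-voom or limma-trend, and 0 had an unadjusted p under 0.05. Gclc, the catalytic subunit of the first enzyme of glutathione synthesis, was at 377 and 388 CPM in WT and at 228 and 493 CPM in DDI2-KO (log2 fold change -0.09, adjusted p = 0.906), with DDI2-KO libraries on either side of WT. Ugdh, which makes UDP-glucuronate, was at 94.7 and 132 CPM against 129 and 120 CPM (0.14, adjusted p = 0.721). Of 11 genes of PAPS and sulfur handling, 2 rose in edgeR's test, while DESeq2 called 3 (Cdo1 besides these 2) and limma-voom and limma-trend called 0, with 4 at an unadjusted p under 0.05 in edgeR. Neither of the 2 makes PAPS. Slc35b2, which carries PAPS into the Golgi, was at 28.9 and 30.0 CPM in WT and at 57.4 and 48.2 CPM in DDI2-KO (0.84, adjusted p = 0.0438). Csad, which leads cysteine sulfinate to taurine, was at 106 and 141 CPM against 334 and 242 CPM (1.23, adjusted p = 0.0417). Papss2, the main PAPS synthase of liver, was at 434 and 418 CPM against 353 and 272 CPM (-0.45, adjusted p = 0.207). The adjusted p of Slc35b2 was above 0.05 without either WT library or DDI2-KO replicate 1 (up to 0.207), and that of Csad without WT replicate 1 (0.142) or DDI2-KO replicate 1 (0.0634).

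Among 17 tested genes of other conjugation reactions, 1 fell, Nnmt, which methylates nicotinamide. It was at 61.4 and 65.4 CPM in WT and at 21.5 and 11.9 CPM in DDI2-KO, without overlap (log2 fold change -1.92, adjusted p = 0.0264). No gene was called by edgeR or limma among 5 of deconjugation, 7 of conjugate export and 22 regulators, where 2, 2 and 5 had an unadjusted p under 0.05 and DESeq2 called 0, 1 and 2. Of the regulators, Nfe2l1 (106 and 68.0 against 114 and 73.7 CPM) and Nr1i2 (55.4 and 59.5 against 72.9 and 58.1 CPM), the genes of NRF1 and of the pregnane X receptor, overlapped between groups. Nfe2l2, the gene of NRF2, was at 87.9 and 102 CPM against 80.2 and 87.2 CPM (-0.19, adjusted p = 0.547). Nr1i3, the gene of the constitutive androstane receptor, was at 238 and 187 CPM against 134 and 160 CPM (-0.54, adjusted p = 0.152).

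Markers of zones and of other cells are given beside these values. Of 10 markers of pericentral hepatocytes, where many phase II genes are expressed most, 8 had a log2 fold change above 0 and none was called by edgeR (4 had an unadjusted p under 0.05, and DESeq2 called Tbx3), with a summed level of 12275 and 7293 CPM in WT and 11825 and 9993 CPM in DDI2-KO. Of 11 periportal markers, 10 were below 0 and none was called by edgeR or DESeq2 (1 had an unadjusted p under 0.05). The lists of cholangiocytes (76.8 to 78.8 CPM in WT and 88.0 to 88.1 CPM in DDI2-KO, Cftr at most 0.356 CPM), Kupffer cells (624 to 730 and 743 to 869 CPM), stellate cells (426 to 446 and 381 to 420 CPM) and lymphocytes (26.4 to 26.6 and 19.3 to 21.8 CPM) held no gene called by edgeR, with 1, 2, 1 and 1 at an unadjusted p under 0.05, and DESeq2 called Adgre1 of the Kupffer cell list. Stab2 was called lower among 7 endothelial genes (-1.10, adjusted p = 0.0288, or 0.109 without WT replicate 1, list at 409 to 449 and 388 to 409 CPM) and Hba-a1 among 5 red blood cell genes (-1.94, adjusted p = 0.0338, or 0.196 to 0.213 without a DDI2-KO library, list at 110 to 210 and 68.3 to 79.3 CPM). The part of these markers in the phase II values was not tested.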

How the data were processed

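The authors deposited raw read counts per gene, 1 table per library, and the submitters' processing notes name cutadapt 1.8, STAR 2.5.2b, HTSeq 0.6.1 and GRCm38. The counting mode, strand setting and annotation release are not given in the sources used here. The 5 summary lines of each table were left out of library sizes and tests. These were the steps computed here. Genes were annotated with GENCODE M21 (48349 of 48709 identifiers found), filtered with filterByExpr, scaled by TMM and tested in edgeR 4.0.16 (R 4.3.3) by the robust quasi-likelihood test, with p-values adjusted after Benjamini and Hochberg over all 13699 genes. The 2 libraries per group are biological replicates per the study, without numbers that pair them. The study's methods name a moderated test in limma, without the transformation used. Alternatives were limma 3.58.1 (voom and trend), DESeq2 1.42.0, other scalings and filters, GC and length offsets, a replicate block and leaving out each library. In a simulation of DDI2-KO against WT on 13479 genes, 184 of 200 genes changed by 2 on the log2 scale were recovered among 210 calls, of which 26 were false. Smaller changes, such as those of most genes described here, were not simulated. Levels between genes were compared per kilobase of annotated exon. Intervals from 3 reads cover counting error only.

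Genes were given values where they were called, where an unadjusted p was under 0.05 without overlap of the groups, where they were among the 4 highest levels of a class, or where they were called or preset in a list. The members and lists were chosen with earlier results of these data known.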

Additional observations from a re-analysis of the deposited data

Results flagged for a closer look

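Outside the gene counts, reads that the counting could not assign to 1 of several overlapping genes made up 3.57% of the reads on genes in DDI2-KO (mean of 3.49% and 3.66%) and 2.52% in WT (mean of 2.5% and 2.54%), a higher share in both DDI2-KO libraries than in both WT libraries. Its part in the values of overlapping genes such as Ugt1a was not tested.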

How the results depend on the processing

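With 2 libraries per group, calls near the threshold moved with the settings. In place of 0 glutathione genes, 1 was called with library totals, and 2 each with DESeq2, no filter, GC and length offsets or an adjusted p under 0.1 (0 to 1 with a library left out). In place of 0 glucuronide genes, 5 were called by DESeq2, 4 without a filter, 3 at an adjusted p under 0.1, and 1 each by limma-voom, limma-trend, without robust estimation and with offsets (1 to 2 with a library left out). In place of 2 sulfate genes, 4 were called by DESeq2 and with offsets, and 1 each by limma-voom, limma-trend, after requiring 1 CPM on average and without robust estimation (0 without DDI2-KO replicate 1, 4 without WT replicate 1 and 6 without WT replicate 2), and the sulfate log2 ratio of sums ranged from -0.43 to 0.14. Over all genes, calls numbered 940 in DESeq2, 136 in limma-voom, 139 in limma-trend, 1544 without a filter, 828 with offsets and 152 without robust estimation, against 346. The replicate numbers were not stated to pair libraries and same-numbered libraries shared little (correlation of deviations 0.06, over 2 pairs); with the replicate block 2 glutathione, 4 glucuronide, 3 sulfate and 1108 genes in all were called. Reversed log2 fold changes were those of Gstz1 (-0.0013 with RLE factors and in DESeq2, -0.052 with upper-quartile factors, -0.018 after requiring 1 CPM on average, -0.13 with offsets), Ugt1a1 (-0.073 with offsets), Sult3a1 (0.0058 in limma-voom) and Sult3a2 (1.8 in limma-voom, 1.39 in limma-trend, 0.16 with the replicate block). Leaving out a library gave ranges that cross 0 for Gstm1 (-0.12 to 0.45), Gstz1 (-0.015 to 0.019), Ugt2b5 (-0.26 to 0.44), Ugt2b36 (-0.089 to 0.36), Ugt1a1 (-0.16 to 0.34), Sult3a1 (-2.03 to 2.04), Sult3a2 (-2.05 to 6.29), Sult5a1 (-1.63 to 0.018), Gsta2 (-1.33 to 0.92), Gclc (-0.74 to 0.37), Ugdh (-0.080 to 0.39) and Nfe2l1 (-0.24 to 0.47). The cause of these differences between settings was not tested. Sult2a3 was called under each setting that tested it with all 4 libraries, and it was not tested after requiring 1 CPM on average. Because it passed the filter on low counts only through the group in which it was higher, these calls are no separate support.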
